A study of Mus musculus with 26 samples.

Results

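Acetylated histone H3 (H3K27ac) was compared between a RAW264.7 line that makes HA-tagged Nur77 and a RAW264.7 line that makes GFP, both without lipopolysaccharide (LPS). RAW264.7 is an established mouse macrophage line. Per the labels, each line stably carries its construct under doxycycline control, and cells of both lines were given 50 ng/ml doxycycline for 18 h, so the drug is shared and the protein made differs. Each construct is represented by 1 stable line, so the construct and the line that carries it cannot be told apart, and whether a line is 1 clone is not given in the sources used here. The comparison uses 4 of the 26 libraries of the series, 2 from Nur77 cells and 2 from GFP cells. Peaks of these 4 libraries were merged wherever they shared at least 1 bp, which gave 65680 regions, and the 32896 regions with a peak in all 4 libraries were tested. The labels do not say that the replicates came from separate cultures, so p-values measure only the spread between these samples, which may be technical.

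H3K27ac marks active enhancers and active promoters and is laid down by histone acetyltransferases that transcription factors recruit. Nur77, encoded by Nr4a1, is an orphan nuclear receptor of the NR4A family that is induced within minutes to hours of macrophage activation, binds as a monomer to a DNA element called NBRE, and is known to restrain inflammatory gene expression in macrophages. AP-1, the family of Fos and Jun dimers, is a main driver of inflammatory enhancers in the same cells.

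Promoter sequences are shown for the protein-coding genes with a listed start site inside a called region and the largest line differences, 3 per direction. These are called regions that include a known start of transcription. The 6 genes were chosen by their values. The sequences are the 250 bases before the start site, read 5′ to 3′ on the strand of the gene, from RefSeq on GRCm38.p6. The Basp1 sequence is at chr15:25413765-25414014 on the minus strand, Cd48 at chr1:171681742-171681991 on the plus strand, Bscl2 at chr19:8837217-8837466 on the plus strand, Cd84 at chr1:171839447-171839696 on the plus strand, Tnni3k at chr3:155055408-155055657 on the minus strand and Gm5150 at chr3:16006333-16006582 on the minus strand. Capitals mark a match to the NBRE (AAAGGTCA) or the AP-1 motif (TGANTCA) on either strand.
Basp1: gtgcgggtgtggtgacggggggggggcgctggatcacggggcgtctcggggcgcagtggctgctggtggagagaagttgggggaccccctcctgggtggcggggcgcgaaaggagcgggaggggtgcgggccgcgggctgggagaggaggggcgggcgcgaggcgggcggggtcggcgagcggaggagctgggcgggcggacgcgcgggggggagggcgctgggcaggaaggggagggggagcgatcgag
Cd48: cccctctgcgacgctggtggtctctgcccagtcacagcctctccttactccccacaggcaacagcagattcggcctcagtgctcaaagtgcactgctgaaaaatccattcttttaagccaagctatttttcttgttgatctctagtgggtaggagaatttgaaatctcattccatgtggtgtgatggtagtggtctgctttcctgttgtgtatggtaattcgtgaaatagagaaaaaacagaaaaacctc
Bscl2: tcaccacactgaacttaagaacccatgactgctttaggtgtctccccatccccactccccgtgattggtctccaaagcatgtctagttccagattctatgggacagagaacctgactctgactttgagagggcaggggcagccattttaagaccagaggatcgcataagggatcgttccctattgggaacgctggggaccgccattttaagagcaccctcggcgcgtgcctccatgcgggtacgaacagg
Cd84: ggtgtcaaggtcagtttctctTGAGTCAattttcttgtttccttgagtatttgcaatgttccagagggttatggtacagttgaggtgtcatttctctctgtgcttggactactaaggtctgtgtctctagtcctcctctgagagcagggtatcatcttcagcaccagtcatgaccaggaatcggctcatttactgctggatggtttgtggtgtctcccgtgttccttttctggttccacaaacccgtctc
Tnni3k: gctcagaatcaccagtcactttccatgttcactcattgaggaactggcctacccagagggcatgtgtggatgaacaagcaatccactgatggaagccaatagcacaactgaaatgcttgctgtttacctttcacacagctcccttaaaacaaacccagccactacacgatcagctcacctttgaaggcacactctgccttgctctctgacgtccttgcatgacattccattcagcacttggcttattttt
Gm5150: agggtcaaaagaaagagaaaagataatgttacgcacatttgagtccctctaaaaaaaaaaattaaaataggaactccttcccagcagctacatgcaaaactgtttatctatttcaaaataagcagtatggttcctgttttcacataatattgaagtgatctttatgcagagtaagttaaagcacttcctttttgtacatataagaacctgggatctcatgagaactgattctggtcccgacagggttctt
The promoters of Basp1, Cd48 and Bscl2 lay in regions higher in Nur77 cells, and those of Cd84, Tnni3k and Gm5150 in regions lower in Nur77 cells. The Cd84 promoter held 1 AP-1 match, and no NBRE match was found in any of the 6 windows.

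The 4 libraries were close in depth, with 28.4 and 27.4 M mapped tags in Nur77 cells and 26.9 and 26.1 M in GFP cells. Peaks held 56.8 and 56.2% of tags in Nur77 cells and 57.2 and 59.5% in GFP cells, a gap for which the exact two-sided permutation test gave p = 0.333, the smallest that 2 against 2 libraries allow. Across the tested regions, replicates correlated with a Pearson r of 0.984 in Nur77 cells and 0.983 in GFP cells, and libraries of different lines with 0.934 to 0.939. All 15 macrophage markers examined, among them Spi1, Csf1r, Cd68 and Adgre1, had a peak in each library. Of 21 markers of other cell types, 11 had no peak in any library, among them Cd3e, Kit, Epcam and Alb. The other 10 had a peak in each library, among them Lck, Gfap and Elane.

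The lines differed at a large share of regions. By limma with a Benjamini-Hochberg FDR of 0.05, 5805 regions were higher and 5836 were lower in Nur77 cells, 35.4% of the 32896 tested. The scaling centres the log ratios and so bears on this balance, and without scaling 5238 regions were higher and 6146 lower. Most of these differences were small. The median log2 difference was 0.69 among the regions called higher and -0.66 among those called lower, and 1710 higher and 1647 lower regions differed by at least 2-fold. Only 185 higher and 179 lower regions differed by at least 4-fold, and 16 and 15 by at least 8-fold. Of the 8672 tested regions over a start site listed by RefSeq, called or not, 1.43% were at least 2-fold higher and 1.35% at least 2-fold lower. Among regions over a gene that held no listed start site the shares were 7.29% and 5.59%, and among regions over no gene 5.25% and 9.28%. The start site table covers 79.9% of protein-coding genes, so some start sites are counted among the other classes.

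Called regions also differed between the lines in how much sequence was called, and its part in each difference was not tested. The region caller widens a region where signal is higher, and the median ratio of covered length between Nur77 cells and GFP cells was 1.31 at regions called higher and 0.83 at regions called lower. When tags were divided by the covered length, 2450 regions were higher and 2654 lower, and 37.1% of the higher and 39.8% of the lower calls held in the same direction.

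The 10 largest higher differences over a gene ranged from 2.95 to 3.72 on the log2 scale, and 1 of the 10, over Gm33315, covered a listed start site. The region over the non-coding gene Gm32543 (chr10:17652761-17657985) had 181 and 172 scaled normalised tags in the Nur77 libraries, against 12.1 and 13.0 in the GFP libraries. All 20 regions named by size were chosen for groups that do not overlap, and in this one the peaks spanned 5.13 and 5.00 kb in Nur77 cells against 0.776 and 0.941 kb in GFP cells. Its log2 difference was 3.72 ± 0.16 (SE, n = 2 per line, adjusted p = 2.61e-07 by limma). Ambra1, an autophagy regulator that acts with Beclin, had 77.8 and 99.1 tags in Nur77 cells and 6.41 and 6.69 in GFP cells inside its span (chr2:91832192-91836378). Osbpl3, an oxysterol-binding-protein relative, had 97.6 and 99.1 tags in Nur77 cells and 8.87 and 6.32 in GFP cells. At both genes the GFP values stand near the lowest of any peak in these libraries, 4.98 to 5.21 unscaled tags in GFP cells.

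The strongest of these regions was over Gm37004 (chr2:78975901-78983494), with 502 and 529 tags in Nur77 cells against 69.6 and 62.0 in GFP cells, a log2 difference of 2.95 ± 0.09 (SE, n = 2 per line, adjusted p = 2.99e-08 by limma). It belongs to a stretch of 5 neighbouring regions at chr2:78959353-79053319 that were all at least 2-fold higher, with summed tags of 964 and 993 in Nur77 cells against 180.3 and 209 in GFP cells. Ino80dos had 213 and 222 tags in Nur77 cells and 24.8 and 17.1 in GFP cells. The other regions of this set lay over Gfod1, Gm33315, Lpp, a LIM-domain protein of focal adhesions, Col26a1, a collagen, and Twsg1, a modulator of BMP signalling. Their means ran from 62.1 to 105 tags in Nur77 cells and from 6.55 to 11.9 in GFP cells. Lpp was the least even of them in GFP cells, at 18.2 and 5.57 tags, and its log2 difference of 3.08 ranged from 2.31 to 3.86 when 1 library was left out.

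**Figure D1:**
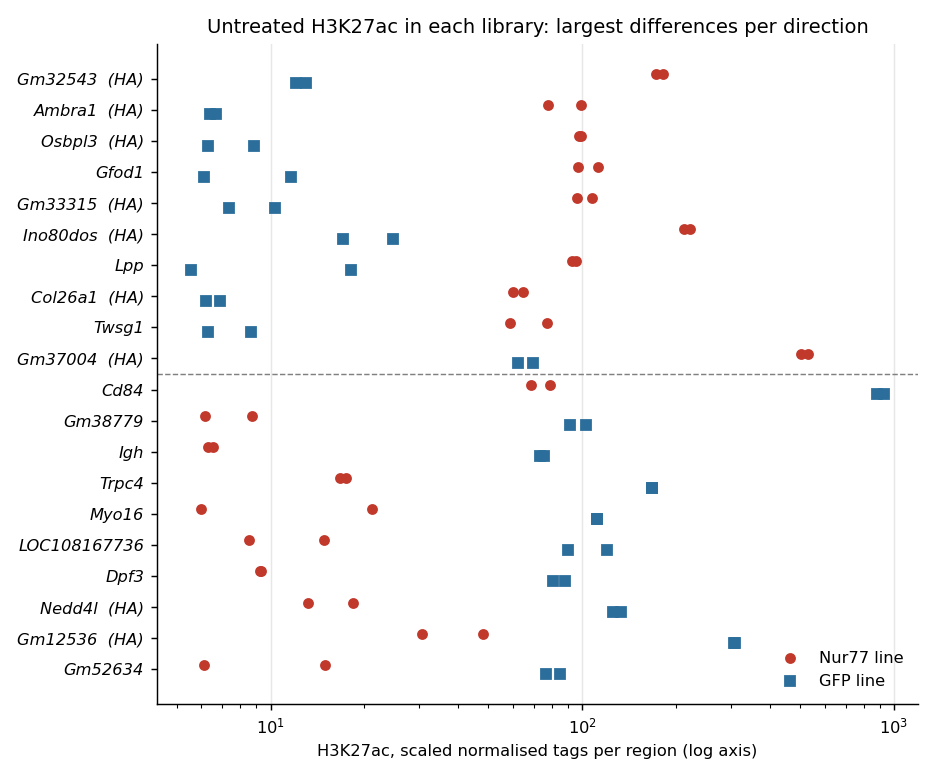
Scaled normalised H3K27ac tags (log axis) in each untreated library at the 10 regions with the largest higher difference (above the dashed line) and the 10 with the largest lower difference (below it), named by the first gene they overlap. Red circles are the 2 Nur77 libraries and blue squares the 2 GFP libraries, HA in brackets marks a region with an HA-Nur77 peak in all 3 HA libraries, and 7 of the 10 upper but 2 of the 10 lower regions carry it. Only the Nur77 line was mapped for HA, and the lower regions have little H3K27ac there by selection, so nothing is read from that order.

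The 10 largest lower differences ran from -3.60 to -2.94. The first was Cd84, a SLAM-family receptor of leukocytes, whose start site lies in the region at chr1:171839347-171852960. It had 78.9 and 68.4 tags in Nur77 cells against 879 and 928 in GFP cells, and its peaks covered 3.91 and 3.58 kb in Nur77 cells against 13.1 and 13.6 kb in GFP cells. The log2 difference was -3.60 ± 0.08 (SE, n = 2 per line, adjusted p = 6.96e-09 by limma). Over this merged region, which includes the promoter shown above, the mark was weak and narrow in Nur77 cells and strong and broad in GFP cells. Where the peaks lie within the region, relative to the promoter and its AP-1 match, was not examined.

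Trpc4, a cation channel gene, had 16.7 and 17.4 tags in Nur77 cells against 168 and 167 in GFP cells. The region over Ptpn3, a tyrosine phosphatase, and Gm12536 had 48.1 and 30.6 tags in Nur77 cells against 309 and 306 in GFP cells. Nedd4l, a ubiquitin ligase of the HECT class, had 13.2 and 18.3 tags in Nur77 cells against 126 and 133 in GFP cells. The rest of the set was over Gm38779 with Gm40357, Igh, Myo16, an unconventional myosin, LOC108167736, Dpf3, a subunit of the BAF chromatin remodeller, and St6galnac3, a sialyltransferase. Their means ran from 6.41 to 13.6 tags in Nur77 cells and from 74.5 to 112 in GFP cells. The 2 Nur77 libraries were furthest apart at Myo16, with 5.99 and 21.2 tags, where the log2 difference of -3.18 ranged from -4.01 to -2.34 with 1 library left out, and at St6galnac3, with 15 and 6.12 tags, where -2.94 ranged from -3.52 to -2.35. Igh and Dpf3 are on chromosome 12, whose regions were lower as a whole (described further on), and with each chromosome centred on its own median they were at -2.78 and -2.48.

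Neighbouring genes of 1 family moved in opposite directions at the SLAM locus on chromosome 1, which was looked at after these values were seen. Cd48, a SLAM-family ligand, had 55.5 and 48.5 tags in Nur77 cells against 8.87 and 6.69 in GFP cells over its start site (log2 difference 2.60 ± 0.26, SE, n = 2 per line, adjusted p = 3.97e-05 by limma). Cd244a, the receptor for CD48, had 2 regions that were higher in Nur77 cells (1.02 and 0.95), calls that were lost per covered base. Slamf7 had 2 regions at -0.38 and -0.43 that did not pass the test. In all, 3 of the 10 tested regions of the locus were higher and 3 lower, and none of its 15 regions had an HA-Nur77 peak in all 3 HA libraries.

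At the Ms4a locus on chromosome 19, also chosen after its values were seen, the differences ran 1 way. The Ms4a genes encode tetraspan membrane proteins of myeloid and B cells. All 6 tested regions were lower in Nur77 cells, from -2.33 at Ms4a4b to -1.09 at Ms4a6d, and 7 further regions, over Ms4a7, Ms4a4a and Gm8369 among others, had peaks in both GFP libraries and in neither Nur77 library. Summed over the 6 tested regions, the locus had 306 and 294 tags in Nur77 cells against 990 and 1035 in GFP cells. The largest such stretch of lower regions lay at chr7:129300458-129665982 over Plpp4, a phospholipid phosphatase, and Wdr11, with 8 regions that summed to 1092 and 1095 tags in Nur77 cells against 5106 and 5101 in GFP cells. Runs of at least 5 neighbouring regions, each called, at least 2-fold different and within 100 kb of the last, numbered 2 in the higher and 8 in the lower direction. The lower runs over Cep128 (median -1.42) and Numb (median -1.40) are on chromosome 12, whose regions were lower as a whole, and runs were counted without centring chromosomes.

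The other promoters shown above were covered by smaller regions. Basp1, a membrane-associated protein known best from neurons, had 72.5 and 83.0 tags in Nur77 cells against 14.1 and 6.69 in GFP cells (log2 difference 2.87 ± 0.30, SE, n = 2 per line, adjusted p = 5.30e-05 by limma). The region over the start site of Bscl2, which encodes the lipid droplet protein seipin, and over Gng3 had 63.5 and 62.7 tags in Nur77 cells against 12.7 and 13.8 in GFP cells. Tnni3k, a kinase known from heart muscle, had 45.5 and 37.0 tags in Nur77 cells against 265 and 279 in GFP cells. Gm5150 had 34.4 and 21.9 tags in Nur77 cells against 147 and 182 in GFP cells. The 6 promoters were chosen as the largest called differences, so that the lines do not overlap there follows from the choice. Promoters with the start site in a called region were searched for an NBRE match in the 250 bases before the start. It was held by 1.17% of the 1539 at higher regions and 1.03% of the 2143 at lower regions. The share was 0.75% of the 8620 with the start site in a tested region not called, and 1.34% of all 32851 promoters of the table. An AP-1 match was held by 6.04% at higher and 5.93% at lower regions, against 4.06% at tested regions not called and 6.75% of all. At regions at least 2-fold higher the shares were 3.29% of 152 for NBRE and 9.87% for AP-1, and at regions at least 2-fold lower 0 of 149 and 8.05%, so the NBRE difference rests on 5 promoters. A match is a run of letters and not a bound site.

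Among regions with an HA-Nur77 peak in all 3 HA libraries, more were higher than lower in Nur77 cells. HA, the tag on Nur77, was mapped in the untreated Nur77 line in 3 libraries and not in the GFP line. Of the 10711 tested regions with an HA peak in all 3 libraries, 28.1% were called higher and 19.4% lower, against 10.4% higher and 15.5% lower of the 13257 regions with no HA peak. The 8928 regions with an HA peak in 1 or 2 libraries ran the other way, with 15.9% higher and 19.0% lower. The background over all tested regions was 17.6% higher and 17.7% lower. Read the other way, 51.8% of the regions called higher, 35.7% of those called lower and 26.5% of those not called had an HA peak in all 3 libraries. Among regions called at least 2-fold the shares were 38.2% of 1710 higher and 20.3% of 1647 lower regions, and at least 4-fold 52.4% of 185 higher and 15.1% of 179 lower regions. These are counts over regions of 1 pair of lines, so no test is attached. Only the Nur77 line was mapped for HA, and lower regions have less H3K27ac there by selection. Nothing is therefore read from the order of these shares.

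HA peaks fall on stronger and wider regions, so the same shares were taken within 4 equal classes of mean signal. Regions with an HA peak in all 3 libraries had a median of 142 tags and 2.92 kb, against 29.0 tags and 1.48 kb for regions with none. Within the second class from the bottom, 28.6% of HA regions were higher and 13.7% lower, against 14.2% and 18.8% of regions with no HA peak. Within the third class the shares were 31.8% and 18.7% against 8.99% and 20.2%, and within the highest class 27.5% and 25.2% against 7.33% and 25.9%. In the lowest class they were 16.4% and 7.27% against 8.98% and 9.24%. In each of the 4 classes the higher share was larger with HA than without, while the lower share was smaller with HA than without, by little in the highest class. Regions over a listed start site showed 20.6% higher and 19.8% lower with HA, against 7.03% and 14.9% with none. The mean signal is taken over both lines, so these classes do not remove the selection on H3K27ac of the Nur77 line. Since HA was mapped only in the Nur77 line, whether these sites were open in GFP cells was not tested.

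**Figure D2:**
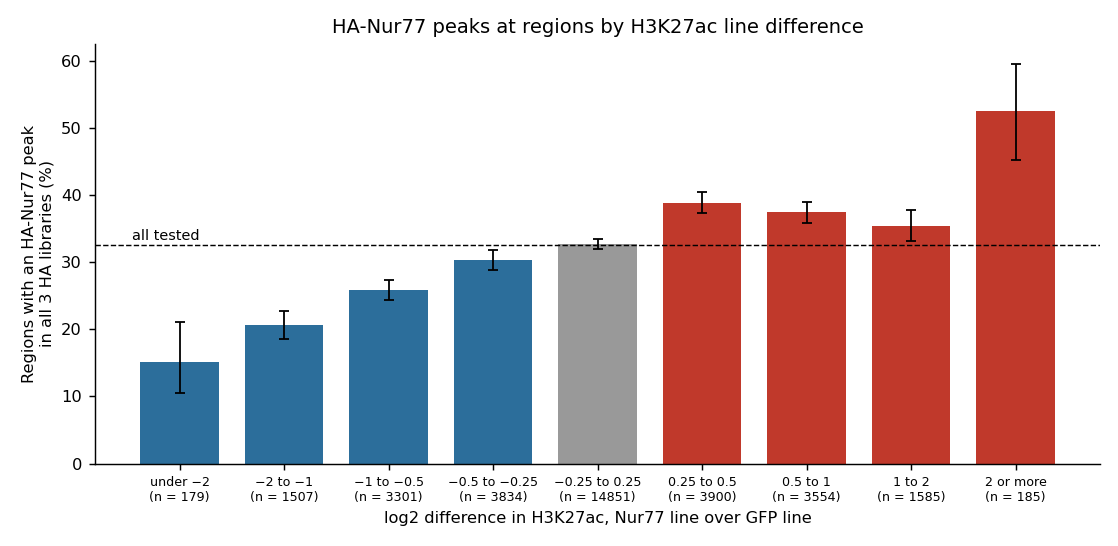
Share of tested H3K27ac regions with an HA-Nur77 peak in all 3 untreated HA libraries, by the size of the H3K27ac difference (log2, Nur77 line over GFP line); bars are percent, error bars 95% Wilson intervals that cover counting error only, and the dashed line is the share among all tested regions, 32.6%. The share is 15.1% at differences under -2 and 52.4% at differences of 2 or more. Only the Nur77 line was mapped for HA, and lower regions have less H3K27ac there by selection, so nothing is read from that order.

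Among the listed genes of macrophage biology the changes were of modest size and mixed in direction. A gene was represented by its lead region, the tested region over its span with the most tags. Members other than the 3 with the smallest p per list were picked for mention after their values were seen. Members with the smallest p were picked from this contrast, so that the lines do not overlap at them follows from the choice. Shares called are set beside the 35.4% of all regions, and the lists of housekeeping genes, TCA cycle, nuclear receptors, histone acetylation and other cell types, with 30.0 to 40.0% called, were near it, and that of interferon response genes was at 21.1%. Lead regions are the strongest of their genes, so this background is not matched to them. The share called rose with width, from 13.4% higher and 13.3% lower under 2 kb to 24.8% and 29.7% at 15 kb or more.

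Most of these calls did not hold per covered base, and the cause was not tested. When tags were divided by covered length, 57 of the 154 called genes kept their call in the same direction. Of the calls named below, those of Jun, Atf3, Nr4a3, Btg2, Mcl1, Tnf, Il1a, Il27, Tlr2, Irf1, Irf3, Oasl1, Csf1r, Clec4d, Abca1, Fabp4, Fabp5, Tfeb, Nr1h4, Dld, Sdhb, Acod1, Hdac4, Actb and the Nr4a1 region no longer passed the test. Those of Klf4 (0.05), Ccr3 (-0.16), Traf3 (0.08), Lpl (0.10), Srebf1 (-0.06) and Clec10a (-0.015) were lost with a turned sign.

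AP-1 genes split by member. Of 14 with a tested region, 5 were higher and 4 lower, with a median of -0.03, against 35.4% called and a median of -0.00 over all regions. Fos had 555 and 468 tags in Nur77 cells against 986 and 1018 in GFP cells (log2 difference -0.97 ± 0.07, SE, n = 2 per line, adjusted p = 6.60e-06 by limma). Atf3, an AP-1 partner that represses many inflammatory genes, had 576 and 599 tags in Nur77 cells against 1033 and 996 in GFP cells. Batf, a dimer partner of Jun proteins, had 247 and 226 tags in Nur77 cells against 423 and 380.0 in GFP cells. All 3 were lower in Nur77 cells, but Fos and Batf lie on chromosome 12 and, with each chromosome centred on its own median, were at -0.40 and -0.19, of which the second did not pass the test. The centred counts of the list were 4 higher and 2 lower. Fosl1, a Fos-related gene, had 248 and 278 tags in Nur77 cells against 137 and 101 in GFP cells and was higher by 1.15, and Fosb and Mafg were higher by 0.49 and 0.46. Jun was higher by 0.15, a call lost when chromosomes were centred, and Junb was at 0.06 without passing the test.

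Of the 24 immediate-early genes outside AP-1, all had a tested region, and 8 were higher and 7 lower with a median of 0.02. Klf2, a zinc finger factor that dampens macrophage activation, had 533 and 526 tags in Nur77 cells against 245 and 217 in GFP cells (log2 difference 1.20 ± 0.07, SE, n = 2 per line, adjusted p = 1.29e-06 by limma). Egr1, an immediate-early zinc finger factor, had 714 and 646 tags in Nur77 cells against 413 and 434 in GFP cells. Csrnp1, induced early by stress and cytokines, had 279 and 293 tags in Nur77 cells against 206 and 186 in GFP cells. Each of these 3 genes carried an HA-Nur77 peak in all 3 HA libraries. Lower members included Btg2 (-0.42), an antiproliferative gene, and Klf4 (-0.36), a factor of monocyte differentiation. The NR4A relative Nr4a3 was lower by a log2 difference of -0.24 and Nr4a2 was at -0.10, which did not pass the test.

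Nr4a1, which encodes Nur77 itself, had 4 tested regions and all stood at positive values in Nur77 cells. The region at chr15:101261782-101263593 had 43.7 and 44 tags in Nur77 cells against 26.1 and 29.6 in GFP cells and was the only one of the 4 that passed the test (log2 difference 0.64 ± 0.19, SE, n = 2 per line, adjusted p = 0.0251 by limma). It lost its call without Nur77 replicate 1 (adjusted p = 0.0878), Nur77 replicate 2 (0.0992) or GFP replicate 1 (0.0893). The region over the listed start site had 13.4 and 18.7 tags in Nur77 cells against 9.43 and 10.6 in GFP cells, at 0.62. The remaining 2 were at 0.45 and 0.85. The highest mean of the 4 regions was 43.8 tags in Nur77 cells. Untreated RNA polymerase II (Pol II) was at -0.95 over the start site region and at 0.78 and 0.52 at the others. It did not pass the test at any of them. Whether tags from the carried Nur77 construct fall on these regions was not tested.

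Lead regions of cytokine genes leaned to the higher side by small amounts, a lean not kept with chromosomes centred. Of 19 with a tested region, 8 were higher and 2 lower, with a median of 0.17, and 9 more, Il1b, Il6, Il10 and Il12b among them, had no region with a peak in all 4 libraries. Il27, a cytokine subunit of myeloid cells, had 255 and 247 tags in Nur77 cells against 115 and 103 in GFP cells (log2 difference 1.20 ± 0.09, SE, n = 2 per line, adjusted p = 4.27e-06 by limma). Il1rn, the antagonist of the interleukin receptor for IL-1, had 113 and 103 tags in Nur77 cells against 230.3 and 247 in GFP cells. Csf1, the macrophage growth factor, had 30.1 and 22.8 tags in Nur77 cells against 68.5 and 64.6 in GFP cells. Il27 stood apart from the other higher members, which lay between 0.17 and 0.66 and included Tnf (0.22) and Il1a (0.66). With each chromosome centred on its own median, 2 cytokine genes were higher and 3 lower. Some of these genes share a region, and over all their 23 tested regions 7 were higher and 4 lower with a median of 0.10.

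Receptors of chemokines and complement moved in both directions. Of 11 measured, 4 were higher and 6 lower, with a median of -0.36 and a median size of 0.81, against 0.29 over all regions. Over all 18 tested regions of these genes, 8 were higher and 7 lower with a median of 0.10. Ccr1, a receptor for inflammatory chemokines, had 49.2 and 48.8 tags in Nur77 cells against 147 and 162 in GFP cells (log2 difference -1.64 ± 0.11, SE, n = 2 per line, adjusted p = 3.55e-06 by limma). Cx3cr1, the fractalkine receptor, had 426 and 423 tags in Nur77 cells against 212 and 199 in GFP cells. C5ar1, the receptor for complement fragment C5a, had 592 and 601 tags in Nur77 cells against 346 and 334 in GFP cells. The neighbouring C5ar2 was higher by 1.01, while Ccrl2, Fpr2 and Cxcr4 were lower, at -1.08, -0.91 and -0.54. Within the cluster of chemokine receptor genes on chromosome 9, Ccr3 was higher by 0.53 while Ccr1 was lower.

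Genes of the NF-kB pathway leaned to the higher side. All 29 had a tested region, of which 13 were higher and 2 lower, with a median of 0.13, and both lower genes, Tnfaip2 and Traf3, are on chromosome 12. Ikbke, a kinase upstream of NF-kB and interferon factors, had 626 and 676 tags in Nur77 cells against 299 and 252 in GFP cells (log2 difference 1.24 ± 0.08, SE, n = 2 per line, adjusted p = 2.34e-06 by limma). Socs3, a feedback inhibitor of cytokine signalling, had 872 and 931 tags in Nur77 cells against 643 and 562 in GFP cells. Tnfaip2 had 758 and 733 tags in Nur77 cells against 1098 and 1117 in GFP cells, a log2 difference of -0.57 that was -0.00 with chromosomes centred. Nfkbia, the NF-kB inhibitor, was at -0.13 without passing the test, and at 0.44 with chromosomes centred, where it did. The centred counts of the list were 8 higher and 1 lower.

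Of 21 Toll-like receptor and LPS sensing genes, 5 were higher and 5 lower with a median of 0.03 (2 higher and 4 lower with chromosomes centred). Tlr13, a receptor for bacterial ribosomal RNA, had 1085 and 1089 tags in Nur77 cells against 1611 and 1549 in GFP cells. Tlr2, a receptor for bacterial lipopeptides, had 1169 and 1166 tags in Nur77 cells against 915 and 956 in GFP cells, and Nod1, a sensor of peptidoglycan, was lower by a log2 difference of -0.67. Of 19 interferon response genes, 4 were higher and none lower, with a median of -0.01, and 1 was higher with chromosomes centred. Their differences were small, 0.42 at Oasl1, 0.30 at Irf1 and 0.23 at Irf3, where the region also covers Bcl2l12. Irf1 lost its call without either Nur77 library (adjusted p = 0.0725 and 0.121), and Irf3 without any library but GFP replicate 1 (0.0501 to 0.106).

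Of 26 macrophage identity genes, 24 had a tested region, while Marco had no region and the region of Maf had no peak in Nur77 cells. Of the 24, 2 were higher and 9 lower, with a median of -0.06 (1 higher and 9 lower with chromosomes centred). Over all 68 tested regions of these genes, 13 were higher and 15 lower with a median of 0.03, so the lean to lower belongs to the lead regions. The region over Lyz2 and its close paralogue Lyz1, the lysozyme genes, had 1296 and 1335 tags in Nur77 cells against 1984 and 2032 in GFP cells (log2 difference -0.61 ± 0.05, SE, n = 2 per line, adjusted p = 7.68e-06 by limma). Csf1r, the receptor for CSF1, had 1238 and 1325 tags in Nur77 cells against 1035 and 961 in GFP cells. Cebpa, a myeloid transcription factor, had 184 and 219 tags in Nur77 cells against 329.7 and 284 in GFP cells. Spi1, the gene of the master regulator PU.1, was at 0.15 and did not pass the test.

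C-type lectin genes ran from -1.77 at Clec2d to 1.84 at Clec10a. Of 13 measured, 2 were higher and 4 lower, with a median of 0.01. Clec10a, a galactose-type lectin of macrophages, had 317 and 343 tags in Nur77 cells against 89.8 and 92.7 in GFP cells (log2 difference 1.84 ± 0.08, SE, n = 2 per line, adjusted p = 2.86e-07 by limma). Its peaks covered 9.96 and 9.6 kb in Nur77 cells against 2.46 and 2.75 kb in GFP cells, and per covered base the difference was -0.015, so tags per base were nearly equal over a longer region in Nur77 cells. Its neighbour Mgl2, of the same lectin type, was higher by 0.75. Clec2d, a ligand of an NK cell receptor, had 39.3 and 36.8 tags in Nur77 cells against 136 and 129 in GFP cells, and Clec7a, the beta-glucan receptor, was lower by a log2 difference of -1.33. Clec4d had 2213 and 2216 tags in Nur77 cells against 2894 and 2888 in GFP cells.

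Genes of lysosome and lipid handling leaned lower. All 29 had a tested region, with 6 higher and 14 lower and a median of -0.17. Gpnmb, a glycoprotein of lysosome-rich macrophages, had 4014 and 4200.4 tags in Nur77 cells against 6629 and 6293 in GFP cells (log2 difference -0.65 ± 0.05, SE, n = 2 per line, adjusted p = 7.72e-06 by limma). Fabp5, a fatty acid binding protein, had 489.5 and 495 tags in Nur77 cells against 729 and 773 in GFP cells. Fabp4, its relative, was lower by a log2 difference of -1.44, Lpl, the lipoprotein lipase, by -0.77, Ctss, a cathepsin whose region also covers Ctsk and Arnt, by -0.50 and Abca1, a cholesterol exporter, by -0.40. Npc2, a cholesterol carrier of the lysosome on chromosome 12, was at -0.77, and at -0.20 with chromosomes centred. On the higher side, Srebf1 and Tfeb, the regulators of lipid synthesis and of lysosome genes, were at 0.38 and 0.37. With chromosomes centred the list held 3 higher and 13 lower genes.

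Nuclear receptors other than the NR4A family mostly stayed near 0, with 6 higher and 2 lower of 21 and a median of 0.05 (2 higher and 1 lower with chromosomes centred). Ppard, a fatty acid receptor, had 565 and 579 tags in Nur77 cells against 295 and 287 in GFP cells (log2 difference 0.97 ± 0.06, SE, n = 2 per line, adjusted p = 1.39e-06 by limma). The weaker region of Nr1h4, the bile acid receptor, was lower by a log2 difference of -0.42 with all libraries, but did not pass the test without Nur77 replicate 1 (adjusted p = 0.115 by limma) or GFP replicate 1 (0.0904). Of 25 genes of the TCA cycle and mitochondrial metabolism, 1 was higher and 9 lower, with a median of -0.09 (1 higher and 8 lower with chromosomes centred). Dld and Dlst, subunits of the large dehydrogenase complexes, were at -0.61 and -0.53 and are on chromosome 12, and with chromosomes centred they were at -0.04 and 0.04. Sdhb, of succinate dehydrogenase, had 289 and 283 tags in Nur77 cells against 371 and 355 in GFP cells. The higher gene was Acod1, which makes itaconate in activated macrophages, with 22.2 and 33.6 tags in Nur77 cells against 8.3 and 15.2 in GFP cells and a log2 difference of 1.21.

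Of 26 genes that write, erase or read histone acetylation, 4 were higher and 6 lower (4 and 2 with chromosomes centred), and over all their 90 tested regions 25 were higher and 16 lower. The acetyltransferase genes Ep300 and Crebbp were at -0.10 and -0.14 and did not pass the test. Hdac5, a class II deacetylase, had 315 and 332 tags in Nur77 cells against 119 and 115 in GFP cells (log2 difference 1.46 ± 0.08, SE, n = 2 per line, adjusted p = 6.01e-07 by limma). Hdac7 was higher by 0.68 while Hdac4 was lower, at -0.60. Rcor1, the corepressor CoREST on chromosome 12, was at -0.62, and at -0.05 with chromosomes centred. In the BCL2 family 6 of 15 were higher and 3 lower (2 and 3 with chromosomes centred). Pmaip1, which encodes the death protein NOXA, had 1037 and 993 tags in Nur77 cells against 499.6 and 511 in GFP cells, and Bik was higher by 0.76. Mcl1, a survival gene whose region of 56.8 to 58.2 kb also covers Ensa and Adamtsl4, was lower by a log2 difference of -0.29.

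Of 16 housekeeping genes 2 were higher and 4 lower, with a median of -0.04, and the called differences were at most 0.34 in size, as at Actb (0.34) and, on the lower side, Polr2a (-0.27). Of 21 markers of other cell types, 10 had a tested region, with 1 higher and 2 lower, namely Gfap (0.81), Lck (-0.61) and the region over Elane and Prtn3 (-0.46). Their summed tags were 747 and 743 in Nur77 cells and 783 and 851 in GFP cells, against 16842 and 16762 in Nur77 cells and 18526 and 18809 in GFP cells for the 15 macrophage markers. Their part in the differences above was not tested.

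**Figure D3:**
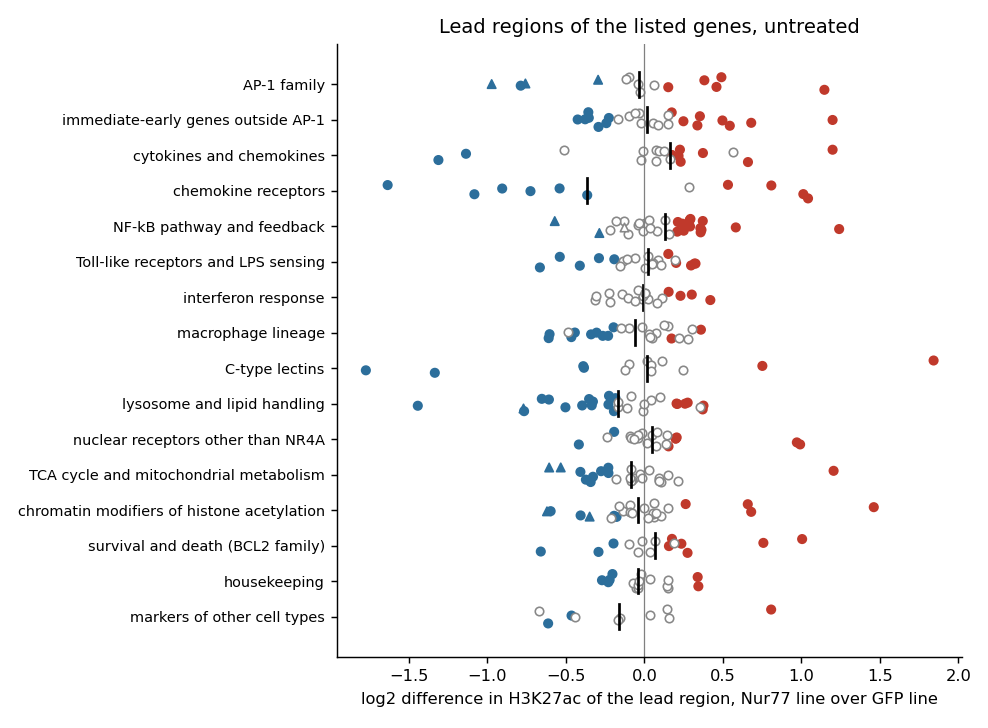
log2 difference in H3K27ac (Nur77 line over GFP line) of the lead region of each listed gene, by list. Filled symbols are called at an FDR of 0.05 (red higher, blue lower), open symbols are not called, triangles are genes on chromosome 12 and black bars are list medians, which run from -0.36 for chemokine receptors to 0.17 for cytokines.

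Chromosome 12 stood apart from all others. Its 1443 tested regions had a median log2 difference of -0.57, a ratio of 0.672 between Nur77 cells and GFP cells, while the medians of the other 19 chromosomes lay between -0.05 on chromosome X and 0.08 on chromosome 17. On chromosome 12, 58.3% of regions were called lower and 4.57% higher, against at most 19.5% lower on any other chromosome. The difference ran along the whole chromosome, with medians from -0.75 to -0.45 in its 12 windows of 10 Mb, whereas none of the 248 windows on other chromosomes was below -0.4. Each pairing of a Nur77 with a GFP library gave nearly the same median, from -0.57 to -0.55.

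The same chromosome was lower in the other 4 sets of libraries examined. Pol II after LPS was not analysed here. The median log2 difference was -0.56 in the H3K27ac libraries after LPS and -0.53 in the untreated Pol II libraries. Input chromatin, which carries no antibody selection, had a median of -0.49 over 94 regions called in both untreated input libraries and -0.67 over 145 regions after LPS, with 1 library per line and condition. On other chromosomes the input medians lay between -0.26 and 0.21 untreated and between -0.15 and 0.33 after LPS. Chromosome 12 held 841 of the 5836 lower calls, and centred on its own median it had 279 higher and 248 lower regions. Left out of the fit altogether, the remaining chromosomes gave 5492 higher and 5296 lower regions.

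**Figure D4:**
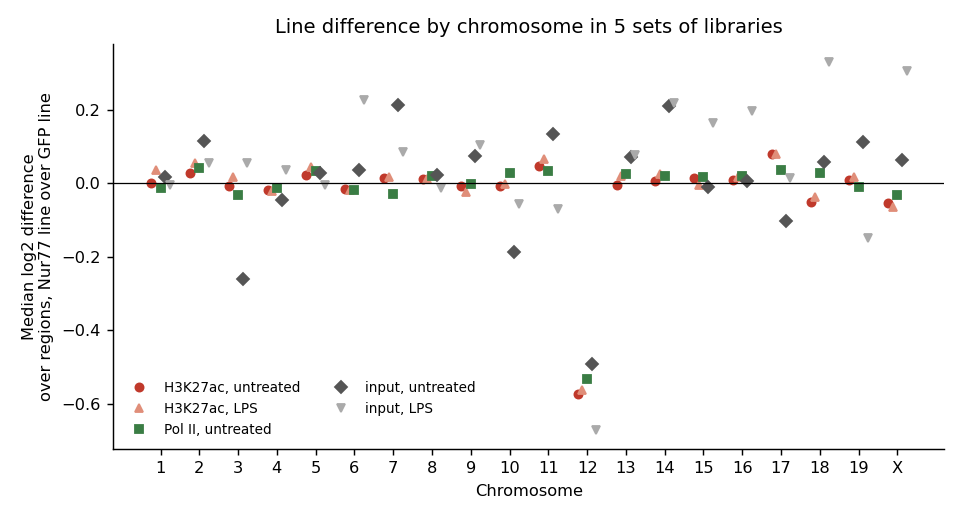
Median log2 difference (Nur77 line over GFP line) over regions of each chromosome in 5 sets of libraries: H3K27ac untreated and after LPS, Pol II untreated, and input untreated and after LPS. All 5 symbols of chromosome 12 lie between -0.67 and -0.49, and those of other chromosomes between -0.26 and 0.33.

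Regions called in 1 line only added to the differences above. Peaks in both Nur77 libraries and in neither GFP library were found at 3168 regions (4.82% of all regions), and the converse at 2541 (3.87%). With lists cut to equal length the counts were 2626 and 2719, so the order of the lines in these counts depends on list length. They were weak, with medians of 9.55 tags for regions of Nur77 cells only and 10.2 tags for regions of GFP cells only, and 2.62% and 2.75% lay over a listed start site. An HA peak in all 3 libraries was present at 13.0% of the regions of Nur77 cells only and at 3.54% of those of GFP cells only, against 32.6% of tested regions. HA was mapped only in the Nur77 line, where the regions of GFP cells only have no H3K27ac peak by selection, so nothing is read from that order. On chromosome 12 there were 52 regions of Nur77 cells only and 415 of GFP cells only.

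The strongest regions of Nur77 cells only lay over the joining segments of Igh on chromosome 12, with 259 and 265 unscaled tags and an overlap with a region called in input, and over Zic5, a zinc finger factor of neural development, with 160.4 and 181 tags. Arhgap26 with Spry4, Elk3, an ETS-family factor, and Rb1, the retinoblastoma gene, followed with means of 116, 107 and 107 tags. The strongest regions of GFP cells only lay over Fat3, a giant cadherin, with 129 and 139 tags, and over C330008A17Rik, with 124 and 128 tags. Tex37, Tdrd9 and Rapgef5 followed with means of 125, 101 and 86.1 tags, the last 2 on chromosome 12 and over regions called in input. After LPS, the Tex37 region again had peaks only in GFP cells, at 138 and 134 tags, and the Zic5 region only in Nur77 cells, at 47.9 and 79.0 tags. The regions over Igh, Rb1, C330008A17Rik and Tdrd9 also kept their pattern. Not so the others, as GFP cells had peaks at Arhgap26 with Spry4 (12.6 and 11.3 tags) and, in 1 library, at Elk3 (6.63). Nur77 cells had peaks at Fat3 (17.9 and 14.4) and Rapgef5 (13.4 and 14.0). Of the Nur77-only regions 19.1% and of the GFP-only regions 23.5% had the same pattern over the 4 LPS libraries, and 24 and 22 regions had the opposite one.

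The line differences were seen again in the H3K27ac libraries of the same lines after 500 ng/ml LPS for 1 h, which share no library with the untreated ones. Of the regions called higher without LPS, 4941 had peaks in all 4 LPS libraries, and 93.2% of these were on the same side after LPS, with 2545 called higher and 31 called lower. Of those called lower, 5125 could be tested, 94.8% were on the same side, and 2875 were called lower and 7 higher. Among the 17102 tested regions not called without LPS, 67.3% were on the same side. Only 3 of the 10 largest higher and 7 of the 10 largest lower regions could be tested after LPS. The background in the LPS libraries was 27.3% called of 27168 regions, with 3534 (13.0%) higher and 3885 (14.3%) lower. Without Nur77 replicate 1 of the LPS libraries 2306 regions were higher, and without GFP replicate 1 2288 were lower. Cd84 was at -3.31 after LPS, Gm37004 at 1.99, Ccr1 at -1.84 and Clec10a at 2.12. Across the 27168 regions the difference with and without LPS correlated with a Pearson r of 0.80, a description of 1 pair of lines whose regions share the same libraries.

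**Figure D5:**
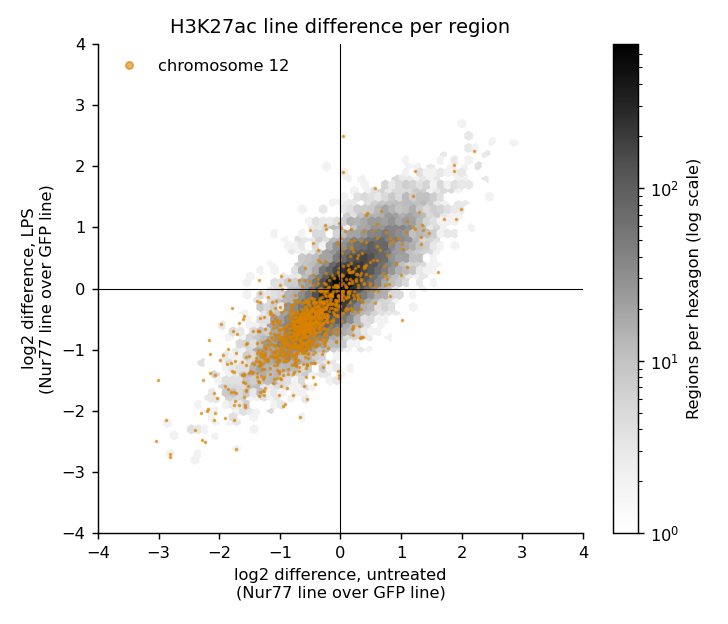
log2 difference in H3K27ac (Nur77 line over GFP line) per region without LPS (x axis) and after LPS (y axis) over 27168 regions; grey shade is the number of regions per hexagon on a log scale and orange points are the regions of chromosome 12. The cloud runs along the diagonal with a Pearson r of 0.80, and the orange points centre at -0.57 and -0.56.

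RNA polymerase II differences mostly had the sign of the acetylation difference. Pol II was mapped in 2 untreated libraries per line, and 19991 of its regions had a peak in all 4. Over Pol II regions that overlap an H3K27ac region called higher (n = 3307), the median Pol II log2 difference was 0.46 and 89.9% were above 0. Over those at regions called lower (n = 3567) it was -0.41 with 12.8% above 0, and over those at regions not called (n = 11499) it was 0.00. At regions called at least 2-fold higher and lower the Pol II medians were 1.02 (n = 471) and -1.21 (n = 460). Leaving out chromosome 12, the medians were 0.46 at higher and -0.35 at lower regions.

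By limma, 3 Pol II regions were higher (0.015%) and 1 lower (0.005%), 0.02% of those tested, and 13.1% had an unadjusted p under 0.05. These counts depend on the fit, with 124 higher and 73 lower without scaling, and 2901 called with the replicate number as a block. The counts moved widely when 1 library was left out, to 653 regions without GFP replicate 2, 103 without Nur77 replicate 2, 52 without GFP replicate 1 and 8 without Nur77 replicate 1. That library's header gives a fragment length of 1550 bp against 256 to 318 bp in the other 3. At Ccr1 Pol II had 18.8 and 23.2 tags in Nur77 cells against 134 and 143 in GFP cells. At Clec2d it had 36.7 and 44 tags in Nur77 cells against 891 and 251 in GFP cells, and at Clec10a 1641 and 929 in Nur77 cells against 353 and 151 in GFP cells. At Ikbke it had 874 and 986 tags in Nur77 cells against 285 and 346 in GFP cells, and at Klf2 1261 and 2259.9 in Nur77 cells against 891 and 712 in GFP cells. None of these 5 passed the test (adjusted p from 0.0936 to 0.214 by limma). With the replicate block all 5 passed it, among 2901 of the 19991 tested Pol II regions that did. The 5 were picked from the named regions by no set rule, so nothing is read from the lack of overlap between the lines. At Egr1, whose H3K27ac was higher, Pol II had 1902 and 1508 tags in Nur77 cells against 3632 and 1913 in GFP cells.

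At the 5 regions with the most tags the differences were at most 0.30 in size, against a median size of 0.29 over all tested regions. The strongest, at chr2:98666108-98667601 over no gene, had 18167 and 19019.9 tags in Nur77 cells against 19559 and 16334 in GFP cells and is also called in input, as is the second, on an unplaced scaffold. The Malat1 and Neat1 region of 60.9 to 62.2 kb, over 2 long non-coding RNA genes, had 8723 and 9156 tags in Nur77 cells against 11478 and 10602 in GFP cells, a log2 difference of -0.30 that passed the test, but not per covered base. The region over A630001O12Rik was at -0.13 and did not. The other of the 5 was the Mcl1 region named above, at -0.29, which passed the test but not per covered base.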

How the data were processed

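H3K27ac, Pol II, HA and input peak lists of 2 RAW264.7 lines were used as deposited. The submitters' processing notes name HISAT2 2.1.0, HOMER without a version, and the build mm10. Per the file headers, H3K27ac regions were called in each library separately, with HOMER's histone settings, a Poisson p of 0.001 and no input. The headers show local filtering switched off in replicate 2 of each line, and 0 regions removed by it in any of the 4 libraries. The signal is the authors' deposited normalized tag count per 10 M mapped tags. It is not a whole count, so the planned count test was replaced by limma 3.58.1 (R 4.3.3) with a trend on log2(tags + 1), on which scale fold changes of weak regions are understated. Region size, a deposited length in bp, gave covered length.

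Tags were summed per merged region and library and scaled by trimmed means (30% of log ratios and 5% of mean levels trimmed), with factors from 0.982 to 1.03. P-values were adjusted by Benjamini-Hochberg over all tested regions. A region was given the genes whose RefSeq span plus 1 kb it overlaps. Named were the 10 largest called differences per direction over a gene, without overlap of the groups or of an input region, the 3 smallest p per gene list, the 5 strongest regions called in 1 line only per line, all Nr4a1 regions and the 5 strongest regions. Members, lists and tests were chosen with earlier results of these data known. Steps were tested on simulated data. Some listed genes are counted in their lists but not reported here by name. Alternatives were other scalings, filters, pseudocounts, merging, tags per covered length, all 8 H3K27ac libraries in 1 fit, a replicate block and leaving out each library. A fit without chromosome 12 and one with each chromosome centred on its own median were added after seeing the data. Of the 76 named regions, 24 overlap a region called in input.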

Additional observations from a re-analysis of the deposited data

Results flagged for a closer look

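In a fit of all 8 H3K27ac libraries, the line difference after LPS minus that without LPS passed the test at 101 of 27168 regions (0.372%), 27 upward and 74 downward, and at 3 of the 63 named regions that could be tested. Those 3 stand here because the size of the line difference changed with LPS by that test.

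At the region over the Irf1 start site, the transcription factor IRF1 being a driver of interferon responses, LPS-treated cells had 145 and 133 tags in Nur77 cells against 290.4 and 263 in GFP cells. The line difference was -0.98 after LPS and 0.30 without it, a change of -1.31 (adjusted p = 0.00322 by limma, n = 2 per line and condition). At Gm37004, LPS-treated cells had 770.5 and 768 tags in Nur77 cells against 204 and 183 in GFP cells. The line difference was 1.99 after LPS and 2.95 without it, a change of -0.98 (adjusted p = 0.0120 by limma). At Klf2, LPS-treated cells had 157 and 158 tags in Nur77 cells against 119 and 136 in GFP cells. The line difference was 0.30 after LPS and 1.20 without it, a change of -0.91 (adjusted p = 0.0182 by limma).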

How the results depend on the processing

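Of the H3K27ac differences, 11641 regions were called, 5805 higher and 5836 lower in Nur77 cells. Without a trend in limma 7358 were called (3716 higher, 3642 lower), and with tags per covered base 5104 (2450 higher, 2654 lower); the cause was not tested. Leaving out 1 library, which leaves 1 sample in a line that is assumed to vary like the other line, gave 8922 to 10491 called regions, and the other alternatives 8067 to 11853. The labels do not say that a replicate number marks a shared culture or batch. The difference of replicate 1 and 2 correlated between the lines with r = -0.07 for H3K27ac without LPS, 0.07 after LPS and 0.47 for Pol II, and with 2 replicates a line this is a hint at most, so the replicates were not taken as pairs. With a replicate block 10946 H3K27ac regions were called without LPS (5538 higher, 5408 lower), 10626 after LPS, and 2901 Pol II regions (1277 higher, 1624 lower).

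After LPS, leaving out 1 library gave 4823 to 5564 called regions, 2306 to 2535 higher and 2288 to 3137 lower. For Pol II it gave 8 to 653 called regions, 3 to 368 higher and 5 to 285 lower, and without scaling 197 (124 higher, 73 lower); the cause was not tested. Regions called in 1 line only fell to 1756 in Nur77 cells and 1542 in GFP cells when peaks of at least 20 tags were kept, since fewer peaks enter. Of the lead regions of listed genes 76 were higher and 77 lower, 28 and 33 per covered base, and 162 and 129 when all regions of a gene were counted. With an HA peak in at least 1 library in place of all 3, 22.6% of HA regions were higher and 19.3% lower, in place of 28.1% and 19.4%.

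The chromosome 12 median of -0.57 became -0.56 with all 8 H3K27ac libraries in the fit, -0.55 without input regions, -0.60 without scaling, -0.62 with a peak in at least 3 of 4 libraries, -0.49 with a pseudocount of 10 and -0.21 per covered base, all below 0. Among single regions, Clec10a turned to -0.015 per covered base, Dlst to 0.038 with each chromosome centred on its own median, and the region at chr2:98666108-98667601 to -0.026 when centred and -0.073 without GFP replicate 2 (0.19 without GFP replicate 1). Without a trend 13 named calls were lost, among them Tlr2, Csf1r, Cebpa, Mcl1 and Malat1. Of the 70 named regions called, 5 lost the call without 1 library.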
